A study of Mus musculus with 15 samples.

Results

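The subject is a set of 65 genes whose level in mouse cerebellum was at least 1 log2 unit below wild type in both groups of mice that carry an Atxn1[82Q] allele. They were chosen from group means of log2(CPM + 0.5), where CPM, the usual depth-scaled unit, is a count divided by the total of its library. A gene had to average at least 1 CPM over the 15 libraries, lie at least 1 unit below wild type in both groups, and have no overlap of the 5 wild-type values with the other 10. Of 24420 gene symbols in the table, 14015 averaged at least 1 CPM and 77 of these met the rule (0.549%). Of 16 well-known genes that the rule leaves out 12 also met its thresholds, and the other 65 genes are described here. Both comparisons with wild type chose the genes, so their size and direction are a description and were not tested.

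The groups held 5 libraries each. Wild-type mice (WT) were FVB/nJ and 9 weeks old, Atxn1[82Q] mice (82Q) had the same strain and age, and mice with genotype Atxn1[82Q],CalphaLoxM120A (82Q_M120A) had a mixed c57Bl/6J:FVB/nJ background and were 8 weeks old. The series' design text calls Atxn1[82Q] a knockin, and no source used here names the promoter or cell type that drives it, or a Cre. Both mutant groups carry Atxn1[82Q]; strain, age and the kinase allele cannot be told apart in 82Q_M120A, since the kinase allele is never present by itself. The labels do not say whether replicates came from separate animals, so p-values here reflect the spread among these libraries, which may be technical. Library numbers follow the order of columns.

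Spinocerebellar ataxia type 1 is caused by a lengthened glutamine tract in ataxin-1, and Purkinje cells, the only output neurons of the cerebellar cortex, are its main target. In these cells ataxin-1 acts in the nucleus with transcription factors such as RORA and the repressor CIC, and loss of transcripts of Purkinje cell signalling genes is an early sign of disease. Protein kinase A phosphorylates ataxin-1 at a serine that then binds 14-3-3 proteins, which stabilises it. In whole cerebellum, fewer cells of a type and less RNA per cell cannot be told apart.

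Depth ran from 38322749 to 99422994 counts per library (WT-5 was the shallowest), and 63 of the 65 genes had at least 30 counts in every library. Defining genes of Purkinje cells (Pcp2, Calb1) and granule cells were detected in every library. Counts of mouse Atxn1 averaged 51.6 ± 5.84 CPM in WT (SD, n = 5), against 57.1 ± 1.68 (82Q) and 54.5 ± 2.25 (82Q_M120A), and gene counts do not separate alleles. Prkaca averaged 164 ± 3.90 CPM in WT, against 166 ± 5.94 (82Q) and 147 ± 5.30 (82Q_M120A). The M120A change is a substitution that gene counts cannot show, so neither gene checks the labels. Choroid plexus markers (8 genes, summed) stood apart by library: they passed 1000 CPM in 4 WT, 2 82Q and 1 82Q_M120A libraries and were at 21.3 to 309 CPM in the others. Xist was at 1107 to 1554 CPM in 4 WT, 2 82Q and 3 82Q_M120A libraries and at 0.783 to 2.58 in the others, so the groups differ in this too, and its part in the results was not tested.

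The level left was between 12.02% and 49.8% of WT in 82Q (median 36.0%) and between 12.7% and 49.8% in 82Q_M120A (median 37.0%). All 65 kept under 50% in both groups, and 8 of them kept under 25% in both. Together the 65 genes made up 8231 ± 239 CPM in WT, against 3334 ± 167 (82Q) and 3403 ± 233 (82Q_M120A). The label "less-known" holds only in part, since Cacna1g, Camk2a and Plcb3 are well-studied neuronal genes. In the heat map of 64 of them by library every mutant library lies below every WT library for each gene, which the rule fixes.

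**Figure D1:**
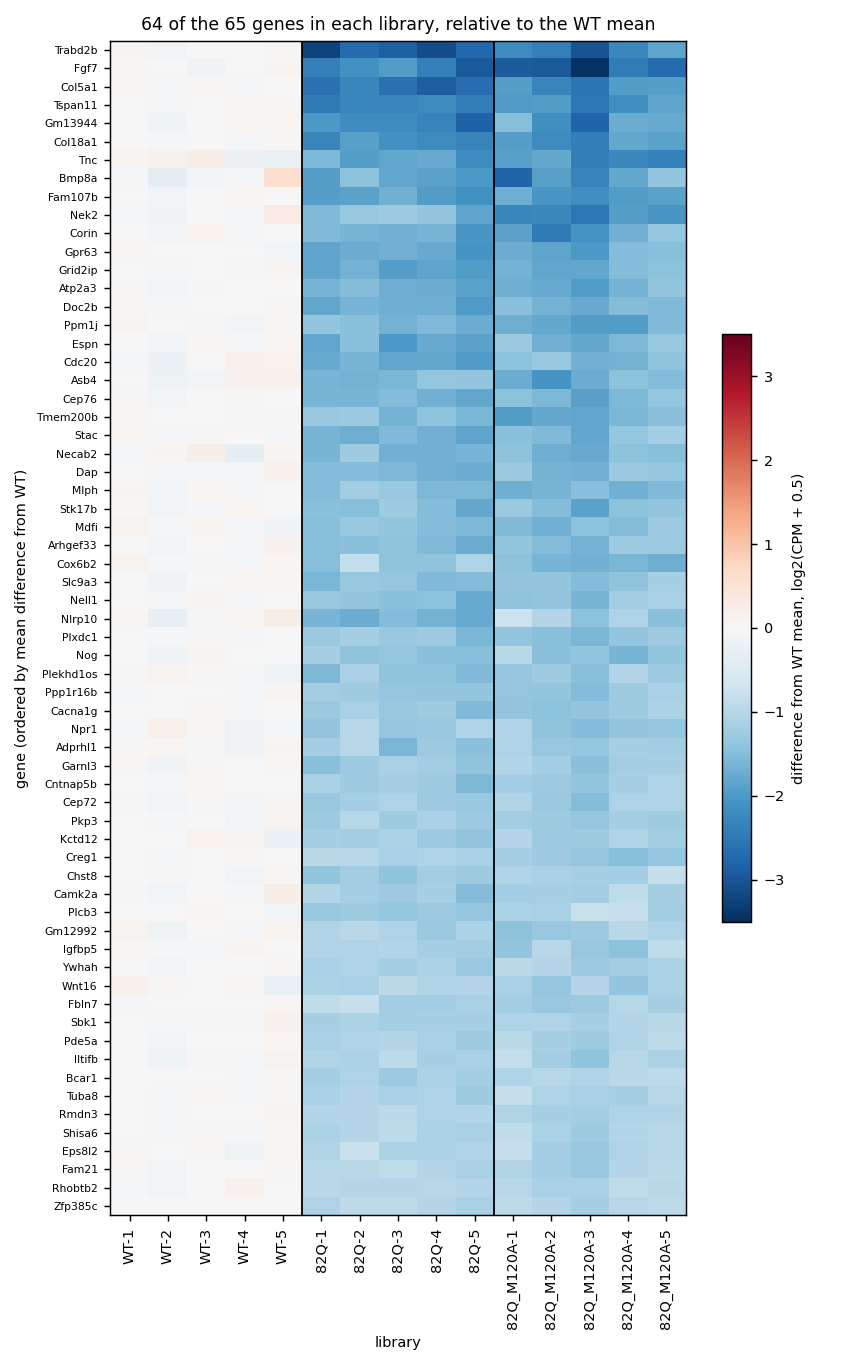
Each row is one of 64 of the 65 genes and each column one library, coloured by the difference of log2(CPM + 0.5) from the WT mean (blue is lower). Rows run from Trabd2b, with 12.02% of WT left in 82Q, to Zfp385c, with 49.0%; WT columns vary little beside the step to the mutant columns.

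Promoters of 5 of the 65 are shown because they hold, or lack, the motifs counted further on: 3 with the core that RORA binds, 1 with a cyclic AMP response element, and 1 of a gene with a deep fall and no match. Each runs from 250 bases before to 50 after the start in RefSeq on GRCm38.p6 (the mm10 assembly), plus strand, in lower case with matches in capitals, other than of the short core TGACG. Fgf7 (chr2:126034408-126034707), Arhgef33 (chr17:80307157-80307456) and Fam21, listed in RefSeq as Washc2 (chr6:116207783-116208082), hold AGGTCA or its reverse complement TGACCT, and in Fam21 it runs into the first of 2 CACGTG matches. Ywhah (chr5:33018566-33018865) holds the element TGACGTCA and TATAAA on the other strand, and Tspan11 (chr6:127887372-127887671) holds none.
Fgf7: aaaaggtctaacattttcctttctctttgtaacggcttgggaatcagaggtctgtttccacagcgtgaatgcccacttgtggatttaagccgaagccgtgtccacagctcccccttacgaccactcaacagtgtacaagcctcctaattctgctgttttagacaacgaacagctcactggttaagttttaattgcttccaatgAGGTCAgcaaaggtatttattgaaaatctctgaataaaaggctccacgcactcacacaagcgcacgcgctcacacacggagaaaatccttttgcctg
Arhgef33: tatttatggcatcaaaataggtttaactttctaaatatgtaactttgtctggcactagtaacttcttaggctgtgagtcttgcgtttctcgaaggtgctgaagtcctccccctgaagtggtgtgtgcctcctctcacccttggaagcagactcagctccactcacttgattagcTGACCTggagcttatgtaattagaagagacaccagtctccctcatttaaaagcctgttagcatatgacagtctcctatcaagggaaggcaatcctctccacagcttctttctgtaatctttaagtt
Fam21: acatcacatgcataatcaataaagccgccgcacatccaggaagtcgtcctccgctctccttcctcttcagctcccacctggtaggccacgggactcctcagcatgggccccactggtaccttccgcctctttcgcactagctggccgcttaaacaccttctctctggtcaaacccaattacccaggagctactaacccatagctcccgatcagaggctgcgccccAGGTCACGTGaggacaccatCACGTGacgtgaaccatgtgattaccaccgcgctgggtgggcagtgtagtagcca
Ywhah: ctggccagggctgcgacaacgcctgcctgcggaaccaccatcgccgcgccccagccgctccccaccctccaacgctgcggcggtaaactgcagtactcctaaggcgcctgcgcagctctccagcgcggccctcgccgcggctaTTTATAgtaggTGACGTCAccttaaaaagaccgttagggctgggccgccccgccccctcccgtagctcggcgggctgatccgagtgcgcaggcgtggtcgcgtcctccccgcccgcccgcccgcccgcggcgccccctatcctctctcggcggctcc
Tspan11: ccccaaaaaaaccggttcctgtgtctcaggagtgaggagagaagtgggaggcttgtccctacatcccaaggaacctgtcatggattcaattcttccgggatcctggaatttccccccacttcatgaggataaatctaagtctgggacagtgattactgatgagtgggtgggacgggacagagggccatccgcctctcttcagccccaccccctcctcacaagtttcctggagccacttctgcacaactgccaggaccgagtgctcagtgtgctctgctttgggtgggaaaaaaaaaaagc

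Among 14 genes of calcium and synaptic signalling, between 26.7% and 47.9% of WT was left in 82Q and between 26.6% and 49.8% in 82Q_M120A. This grouping by role, like those that follow, was made after the gene names were known. Cacna1g, a T-type calcium channel subunit, read 444, 433, 455, 427 and 437 CPM in WT. It read 178, 198, 174, 183 and 149.6 in 82Q and 169, 163, 168, 183 and 204 in 82Q_M120A. The mutant groups overlapped, with means of 439 ± 10.9 CPM (WT), 177 ± 17.6 (82Q) and 178 ± 16.7 (82Q_M120A; SD, n = 5), or 40.2% and 40.4% of WT. Atp2a3, a calcium pump of the endoplasmic reticulum, had 431, 393, 428, 411 and 422 CPM in WT, 134, 144, 128, 124 and 113 in 82Q and 127, 123, 108, 132 and 159 in 82Q_M120A. Here too the mutant groups overlapped, at 30.9% and 31.1% of WT.

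Plcb3, a phospholipase C that makes inositol trisphosphate and diacylglycerol, had 101, 102, 106, 100.3 and 95.03 CPM in WT, 40.2, 42.3, 39.1, 41.4 and 38.9 in 82Q and 46.9, 45.7, 58.8, 57.3 and 42.7 in 82Q_M120A, so every 82Q_M120A library lay above every 82Q library. Ywhah, which encodes the 14-3-3 protein eta, had the highest level of the 65, also per length, with CPM values of 1095, 1019, 1104, 1097 and 1119 in WT, 497, 509.8, 476, 502 and 438 in 82Q and 563, 531, 448, 476 and 500.4 in 82Q_M120A. Its mutant groups overlapped, with means of 1087 ± 39.1 CPM (WT), 484 ± 28.9 (82Q) and 504 ± 44.98 (82Q_M120A; SD, n = 5), or 44.6% and 46.3% of WT. Among those with least left was Grid2ip, whose protein delphilin binds the glutamate receptor GluD2 at the parallel fibre synapse, at 27.7% and 31.7% of WT in 82Q and 82Q_M120A. Near it stood Gpr63, an orphan receptor (27.3% and 29.4%), Necab2, a neuronal calcium-binding protein (26.7% and 26.6%), and the vesicle calcium sensor gene Doc2b (29.2% and 33.3%). Stac, an adaptor of calcium channels, was at 29.4% and 34.7%. Cntnap5b, a contactin-associated protein gene (40.9% and 42.3%), Kctd12, an auxiliary subunit of GABA-B receptors (42.4% and 44.4%), and the kinase gene Camk2a (42.6% and 45.7%) kept more. So did Shisa6, an auxiliary protein of AMPA receptors (47.9% and 48.4%).

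Of the 11 genes for kinases, phosphatases, cyclic nucleotides and small GTPases, Sbk1 had the highest level, also per length, and is an SH3-domain-binding kinase gene. It read 856, 802, 828, 820.0 and 936 CPM in WT, 376, 390.2, 371, 380.5 and 377 in 82Q and 398, 409, 379, 419 and 433 in 82Q_M120A. The ranges of the mutant groups overlapped, with means of 848 ± 52.4 CPM (WT), 379 ± 7.19 (82Q) and 408 ± 20.4 (82Q_M120A; SD, n = 5), or 44.7% and 48.1% of WT. Ppp1r16b, a regulatory subunit of protein phosphatase 1, had 395, 399, 409, 388 and 432 CPM in WT, 172, 171, 158, 156 and 154 in 82Q and 157, 154, 139.9, 169 and 185 in 82Q_M120A. Arhgef33, a guanine nucleotide exchange factor gene, read 229, 213, 223, 218 and 252 in WT, 79.99, 81.8, 85.7, 77.8 and 68.2 in 82Q and 86.8, 79.4, 71.9, 93.5 and 93.8 in 82Q_M120A. In each the mutant groups overlapped, and Ppp1r16b was at 40.1% and 39.8% of WT and Arhgef33 at 34.6% and 37.4%. Bcar1, the adhesion scaffold p130Cas, was near the limit of the rule, with 196, 199, 195, 187 and 202 CPM in WT, 86.3, 91.6, 81.1, 91.2 and 85.4 in 82Q and 91.8, 97.5, 93.7, 99.8 and 104 in 82Q_M120A. Here each 82Q_M120A library was higher than each 82Q library.

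Within the same role Npr1, the membrane guanylate cyclase that natriuretic peptides activate, was at 41.5% of WT in 82Q and 38.1% in 82Q_M120A. Pde5a, which breaks down the cyclic GMP it makes, was at 45.6% and 47.7%, and Corin, the protease that activates the peptide, counted below with the surface proteins, was at 28.1% and 24.8%. Ppm1j, a serine/threonine phosphatase, was lowest here (28.3% and 22.7%). It shares its stretch of the genome with Fam19a3 on the opposite strand, which averaged 1.59 CPM in WT, against 0.442 (82Q) and 0.280 (82Q_M120A), and whether the counting used strand is not stated in the labels. The remaining ones were the apoptosis-related kinase gene Stk17b (35.4% and 35.3%), Garnl3 (40.6% and 43.3%), Eps8l2, which binds actin (48.5% and 46.4%), and Rhobtb2, an atypical GTPase (49.4% and 49.0%).

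The 16 genes for matrix, growth factors and other secreted or surface proteins held the single genes with the least left. Their shares of WT were 12.02% to 47.8% in 82Q and 12.7% to 46.8% in 82Q_M120A. Their medians were 36.0% and 36.6%, while those of the 14 genes described last were lower, at 29.0% and 29.5%. Trabd2b (chr4:114406724-114615098, mm10), a membrane protease that inactivates Wnt proteins, had 36.5, 31.8, 34.1, 34.5 and 35.1 CPM in WT. It had 3.16, 4.90, 4.29, 3.59 and 4.73 in 82Q and 7.03, 6.12, 3.83, 6.85 and 9.19 in 82Q_M120A. Of the 82Q_M120A libraries 4 were above all of 82Q, and 82Q_M120A-3 was within its range, with means of 34.4 ± 1.69 CPM (WT), 4.13 ± 0.744 (82Q) and 6.60 ± 1.93 (82Q_M120A; SD, n = 5), or 12.02% and 19.2% of WT. Col5a1 (chr2:27886425-28039514), the alpha-1 chain of fibrillar collagen V, read 39.7, 37.7, 39.6, 37.4 and 38.7 in WT, 5.96, 7.49, 5.95, 4.79 and 5.68 in 82Q and 9.77, 7.35, 6.14, 9.66 and 9.81 in 82Q_M120A. The mutant groups overlapped, with means of 38.6 ± 1.04 CPM (WT), 5.98 ± 0.974 (82Q) and 8.54 ± 1.70 (82Q_M120A; SD, n = 5), or 15.5% and 22.1% of WT. Col18a1 (chr10:77052178-77166548), the collagen XVIII chain from which endostatin is cut and which in mice helps climbing fibre terminals form on Purkinje cells, read 144, 140.5, 144, 139.6 and 149 CPM in WT. It read 29.4, 37.8, 32.9, 30.01 and 28.03 in 82Q and 37.03, 30.6, 26.2, 41.4 and 38.96 in 82Q_M120A, so the mutant groups overlapped, with means of 144 ± 3.73 CPM (WT), 31.6 ± 3.89 (82Q) and 34.8 ± 6.28 (82Q_M120A; SD, n = 5), or 22.02% and 24.3% of WT.

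Fgf7 (chr2:126034658-126091185), a fibroblast growth factor that organises inhibitory presynaptic terminals in mouse hippocampus, had 37.2, 35.8, 33.5, 36.5 and 38.6 CPM in WT, 6.54, 8.04, 8.97, 6.47 and 4.29 in 82Q and 4.43, 4.28, 2.87, 6.27 and 5.15 in 82Q_M120A. It had the least left of the 65 in 82Q_M120A, with means of 36.3 ± 1.90 CPM (WT), 6.87 ± 1.78 (82Q) and 4.60 ± 1.24 (82Q_M120A; SD, n = 5), or 18.9% and 12.7% of WT. Fam227b, which overlaps Fgf7 on the opposite strand without a shared exon base, averaged 4.97 ± 0.340 CPM in WT, against 5.79 ± 0.798 (82Q) and 0.820 ± 0.124 (82Q_M120A). Tnc, the matrix glycoprotein tenascin C, read 38.8, 40.5, 41.9, 31.6 and 29.9 in WT, 11.8, 9.12, 9.95, 10.3 and 7.57 in 82Q and 9.33, 10.1, 6.42, 7.24 and 6.61 in 82Q_M120A. Its WT spread, with a SD of 5.44 CPM around 36.5, was among the wider ones relative to its level, and the mutant groups overlapped, at 26.7% and 21.7% of WT. Bmp8a, a ligand of the BMP family, is rare: it had 3.35, 2.66, 3.28, 3.34 and 5.56 CPM in WT, 0.567, 0.984, 0.643, 0.592 and 0.494 in 82Q and 0.0805, 0.587, 0.301, 0.667 and 1.04 in 82Q_M120A. Its lowest value, in 82Q_M120A-1, rests on 8 counts. Wnt16, a Wnt ligand, had 4.18, 3.88, 3.79, 3.88 and 3.03 CPM in WT, 1.47, 1.41, 1.70, 1.54 and 1.58 in 82Q and 1.44, 1.16, 1.57, 1.13 and 1.46 in 82Q_M120A, with overlapping mutant groups.

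Creg1, a secreted glycoprotein of lysosomes, read 130.2, 123, 129, 134 and 132 CPM in WT, 65.5, 65.01, 59.2, 61.3 and 58.7 in 82Q and 57.3, 53.7, 50.1, 45.8 and 50.4 in 82Q_M120A. Every 82Q_M120A library was below every 82Q library. Chst8, which sulfates N-acetylgalactosamine, had 26.03, 27.01, 26.8, 24.8 and 27.1 CPM in WT, 9.89, 11.005, 9.68, 11.1 and 10.8 in 82Q and 12.4, 11.8, 11.5, 11.3 and 14.5 in 82Q_M120A, all of them above 82Q. The BMP antagonist gene Nog kept 36.5% of WT in 82Q and 37.1% in 82Q_M120A, the secreted protein gene Nell1 35.6% and 38.7%, and the tumour endothelial marker gene Plxdc1 39.4% and 37.2%. Fibulin gene Fbln7 kept 44.7% and 39.5%, and Igfbp5, which binds insulin-like growth factors, 46.4% and 43.8%. Iltifb kept 46.4% and 45.5%; it is a close copy of Il22, which averaged 6.21 CPM in WT, against 5.35 (82Q) and 4.97 (82Q_M120A), so how reads were divided between these genes is uncertain.

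**Figure D2:**
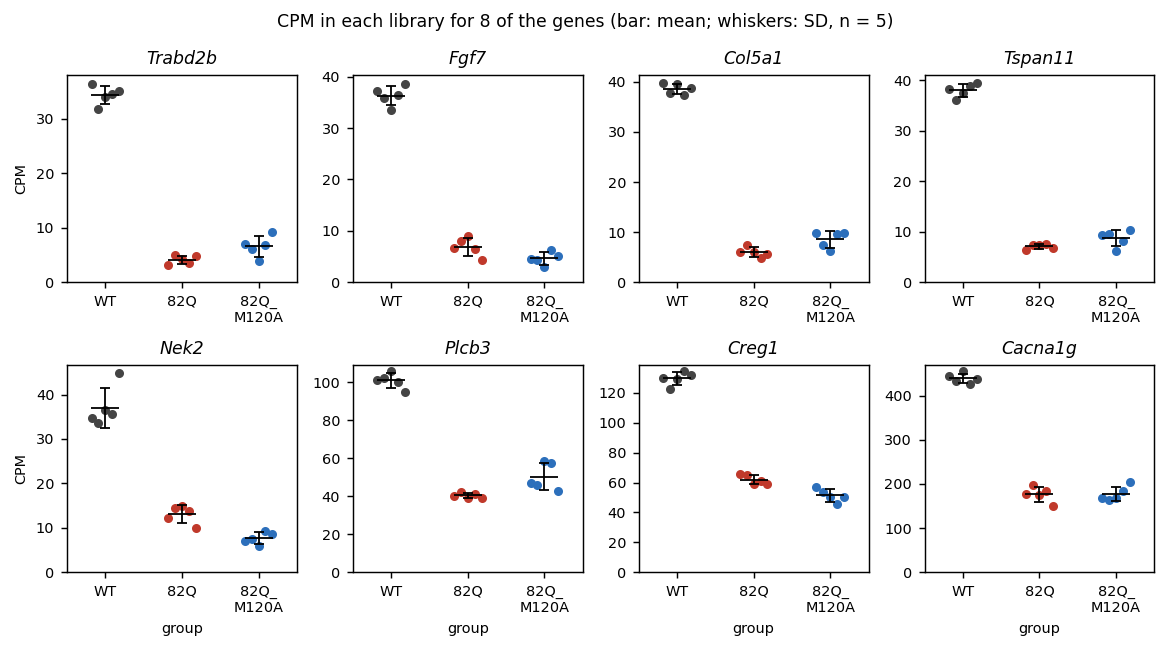
CPM of 8 of the genes in every library, with a point per library, a bar at the group mean and whiskers of 1 SD (n = 5); each axis starts at 0. Nek2 and Creg1 are lower in 82Q_M120A than in 82Q and Plcb3 is higher, while Cacna1g is at 177 and 178 CPM.

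There were 10 genes of the centrosome, cell cycle, cytoskeleton and organelles. Nek2, a centrosomal kinase gene of dividing cells, had 34.8, 33.5, 36.5, 35.6 and 44.8 CPM in WT, 12.2, 14.4, 14.99, 13.8 and 9.99 in 82Q and 7.10, 7.39, 5.96, 9.36 and 8.57 in 82Q_M120A, where every library was below all of 82Q, with means of 37.04 ± 4.46 CPM (WT), 13.1 ± 2.02 (82Q) and 7.68 ± 1.32 (82Q_M120A; SD, n = 5), or 35.3% and 20.7% of WT. Cdc20, an activator of the anaphase-promoting complex that in neurons also takes part in dendrite growth, read 4.75, 4.30, 4.90, 5.74 and 5.45 CPM in WT, 1.12, 1.29, 1.06, 1.09 and 0.904 in 82Q and 1.53, 1.71, 1.20, 1.26 and 1.57 in 82Q_M120A. Its direction between the mutant groups is thus opposite to that of Nek2, with overlap of the ranges. Fam21, a subunit of the endosomal WASH complex, read 596, 544, 589, 579.5 and 601 CPM in WT, 291, 294, 316, 285 and 264 in 82Q and 279, 255, 234, 287 and 304 in 82Q_M120A. Its mutant groups overlapped, at 49.8% and 46.7% of WT. The centrosomal protein genes Cep76 (31.7% and 33.9% of WT in 82Q and 82Q_M120A) and Cep72 (41.3% and 42.5%), the actin-bundling protein gene Espn (22.9% and 28.9%), the myosin Va adaptor gene Mlph (34.3% and 30.01%), the plakophilin gene Pkp3 (42.6% and 40.5%), the tubulin gene Tuba8 (45.5% and 48.4%) and Rmdn3, a tether of mitochondria to the endoplasmic reticulum (49.3% and 46.1%), complete this role.

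The other 14 genes had mixed or little-studied functions. Tspan11, a tetraspanin, read 38.2, 36.2, 37.5, 38.8 and 39.5 CPM in WT, 6.37, 7.41, 7.34, 7.65 and 6.74 in 82Q and 9.27, 9.51, 6.22, 8.17 and 10.3 in 82Q_M120A. Fam107b read 251, 234, 253, 259 and 247 CPM in WT, 65.6, 68.1, 77.8, 63.7 and 56.7 in 82Q and 75.2, 59.8, 56.2, 63.4 and 67.6 in 82Q_M120A. In both genes the mutant groups overlapped: Tspan11 was at 18.7% and 22.8% of WT and Fam107b at 26.7% and 25.9%. Tmem200b, a transmembrane protein gene, had 55.1, 53.9, 54.2, 51.8 and 55.2 CPM in WT, 21.4, 21.6, 16.7, 19.9 and 17.5 in 82Q and 13.6, 15.1, 14.9, 17.5 and 19.2 in 82Q_M120A. Cox6b2, an isoform of a cytochrome c oxidase subunit known from testis, had 10.48, 9.30, 9.44, 9.12 and 10.1 in WT, 3.14, 5.09, 3.31, 3.35 and 4.29 in 82Q and 3.27, 2.79, 2.66, 2.85 and 2.59 in 82Q_M120A. For Cox6b2 the 82Q_M120A values lay toward or under the low end of 82Q. For Tmem200b the values 13.6, 15.1 and 14.9 lay under the 82Q range, and 17.5 and 19.2 lay within it.

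Nlrp10, a NOD-like receptor gene without the leucine-rich repeats of its family, was rare, at 3.33, 2.49, 3.02, 3.33 and 3.73 CPM in WT, 0.694, 0.593, 0.777, 0.651 and 0.579 in 82Q and 1.69, 1.28, 0.861, 1.22 and 0.825 in 82Q_M120A. All 5 82Q_M120A values were above all 5 of 82Q. Slc9a3, a sodium-proton exchanger, had 14.1, 12.98, 13.8, 14.9 and 14.7 CPM in WT, 4.33, 5.37, 5.24, 4.51 and 4.58 in 82Q and 5.08, 5.11, 4.59, 5.04 and 5.98 in 82Q_M120A. Zfp385c, a zinc finger gene, read 57.1, 56.6, 58.1, 57.1 and 57.5 CPM in WT, 26.8, 29.98, 29.9, 27.9 and 25.9 in 82Q and 30.1, 27.8, 25.3, 28.4 and 30.1 in 82Q_M120A. In both genes the mutant groups overlapped, with Slc9a3 at 34.1% and 36.6% of WT and Zfp385c at 49.0% and 49.5%. Asb4 (22.8% and 18.3% of WT in 82Q and 82Q_M120A), Plekhd1os (23.8% and 28.4%), Adprhl1 (26.5% and 28.6%), Dap (31.4% and 35.3%) and Mdfi (34.2% and 33.6%) were the other named ones, and 2 predicted gene models are counted without a name. Plekhd1os lies 125 bases from Plekhd1, which averaged 127 ± 6.15 CPM in WT, against 67.9 ± 4.30 (82Q) and 64.8 ± 4.58 (82Q_M120A).

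At the limit of the rule, the 4 genes nearest inside were Fam21, Bcar1, Zfp385c and Plcb3, whose weaker difference of both lay between -1.005 and -1.008 log2 units. Nearest outside were Strip2 (weaker difference -0.99, 246 CPM in WT, against 123 (82Q) and 124 (82Q_M120A)), Hk2 (-0.99), Srl (-0.99) and a predicted model (-0.98). A further 15 genes passed in 82Q and missed in 82Q_M120A, and 13 did the reverse. Another 11 were past the fold in both and failed because the groups overlapped, and 7 of these 11 are on the choroid plexus list. In WT-4, whose choroid markers summed to 35.3 CPM against 1609 to 2580 in the other WT libraries, the 65 genes stood at 72.9% to 118% of the mean of the other WT libraries, with a median of 97.2%. Markers of other cells moved with the groups: the 12 microglia genes summed to 138 to 157 CPM in WT, 233 to 248 in 82Q and 216 to 264 in 82Q_M120A, and the 10 oligodendrocyte genes to 4980 to 5991, 6319 to 7656 and 7085 to 7882. The 14 granule cell genes summed to 7206 to 8218, 7652 to 8383 and 8306 to 8985 CPM. Sums that went the same way as the 65 were those of the list for molecular layer interneurons with Golgi cells (10 genes), at 1532 to 1790 CPM in WT, 1375 to 1486 in 82Q and 1104 to 1414 in 82Q_M120A, and of the 4 genes of unipolar brush cells, at 792 to 845, 589 to 629 and 655 to 757. Each of these lists holds a gene that is also on the Purkinje cell list, and the second holds 1 of the 65. Gene by gene the first list was mixed. In the edgeR fit described below, 3 of its 10 genes were lower and 1 higher in 82Q against WT, with a median log2 fold change of 0.04. In 82Q_M120A against WT 5 were lower and 2 higher, with a median of -0.19. Over all tested genes 10.1% and 17.8% were lower in these comparisons. The astrocyte and Bergmann glia sum was 4813 to 5105, 5165 to 5444 and 4815 to 5427 CPM, and the part of these shifts in the levels of the 65 was not tested.

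The rule set no condition on the difference between 82Q_M120A and 82Q. The comparison of these groups asks whether mice with the kinase allele differ from those with Atxn1[82Q] alone. It is not independent of the rule, which required low values in both groups. With the 16 known genes counted, 15 genes passed in 82Q only and 13 in 82Q_M120A only, and these were left out. Calls and medians of the 65 are limited by that choice. Of the 65 genes 7 were higher, 4 were lower and 54 were not called (edgeR's quasi-likelihood test, Benjamini-Hochberg adjusted p under 0.05 over all 16808 tested genes). That is 16.9% of the 65, against 18.9% of all tested genes (10.3% higher and 8.63% lower). With all 15 libraries the share of calls was therefore near the background. The median log2 fold change of the 65 was 0.03, against -0.00 over all genes, with 37 above zero, and the extremes were -0.77 and 0.83. Among the 16 known genes left out 3 were higher and 1 lower, with a median of 0.08. One library moved the count: without 82Q_M120A-3, in which most of the 65 were at their group's lowest, 14 were higher and 3 lower. Over all genes that fit called 1569 higher and 1224 lower, against 1724 and 1451 with every library. Without both 82Q_M120A-3 and 82Q-5, 11 of the 65 were higher and 3 lower, and over all genes 1236 and 1008. Calls of higher genes rose among the 65 while they fell over all genes. In 82Q_M120A-3, 61 of the 65 were below their group mean, so leaving it out raises their 82Q_M120A means. The contrast with all genes therefore follows from the library removed and is no result about the 65.

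The 7 higher genes were Nlrp10, Trabd2b, Col5a1, Cdc20, Plcb3, Chst8 and Bcar1. Nlrp10 rose by 0.83 ± 0.18 log2 units (standard error; adjusted p = 0.0037, 5 of 5 libraries above the 82Q mean) and Trabd2b by 0.68 ± 0.18 (adjusted p = 0.0189). These took Nlrp10 from 20.7% to 37.0% of WT, and Trabd2b from 12.02% to 19.2%. Col5a1 rose by 0.52 ± 0.13 (adjusted p = 0.0104), Cdc20 by 0.41 ± 0.12 (0.0267), Plcb3 by 0.32 ± 0.07 (0.00584), Chst8 by 0.23 ± 0.06 (0.0161) and Bcar1 by 0.16 ± 0.04 (0.00929). The call of Cdc20 was lost in a fit of the compared groups alone, with limma-voom, and without any one of 82Q-3, 82Q-5, 82Q_M120A-2 or 82Q_M120A-5 (adjusted p up to 0.0706 over its 24 alternatives). Each of the 7 stayed under 50% of WT, as the rule requires.

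The 4 lower genes were Nek2, Cox6b2, Tmem200b and Creg1. Nek2 fell by 0.77 ± 0.13 log2 units (adjusted p = 0.000729), from 35.3% to 20.7% of WT. Cox6b2 fell by 0.44 ± 0.11 (0.0119), Tmem200b by 0.27 ± 0.09 (0.0427) and Creg1 by 0.27 ± 0.05 (0.000982). Tmem200b was not called without any one of WT-3, 82Q-1, 82Q-2, 82Q-4, 82Q_M120A-1, 82Q_M120A-2 or 82Q_M120A-3, nor in a fit of the compared groups alone (adjusted p up to 0.102 over 24 alternatives). Fgf7 missed the threshold (-0.59 ± 0.20, adjusted p = 0.0546) but was called lower by DESeq2, by limma-voom, with genes of at least 1 CPM only, and without 82Q-5 or 82Q_M120A-4. Tspan11 (0.29 ± 0.10, adjusted p = 0.0572) was called higher by DESeq2 and without 82Q_M120A-3. Cox6b2 was not called without both 82Q-5 and 82Q_M120A-3 (adjusted p = 0.0727). Which of strain, age and kinase allele these differences follow cannot be told apart.

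**Figure D3:**
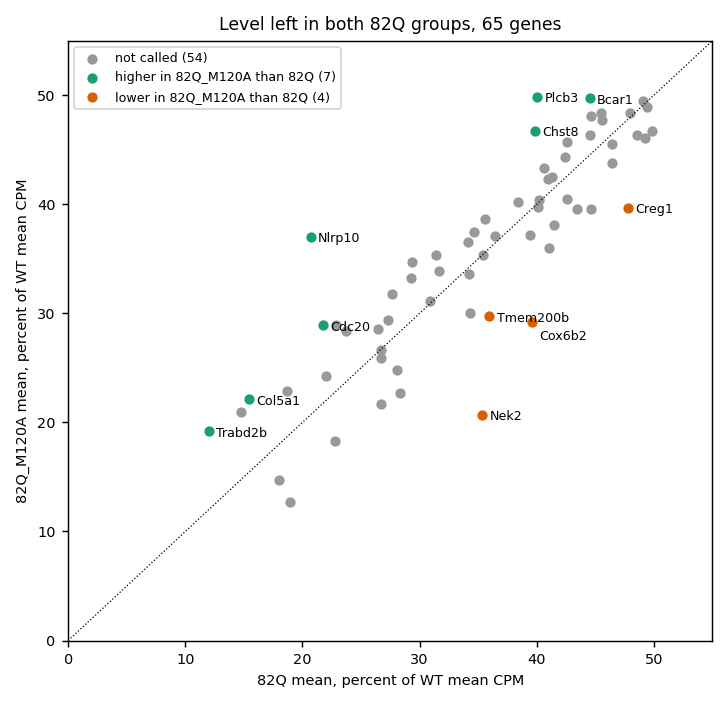
Mean CPM of each of the 65 genes as a percentage of the WT mean, in 82Q (horizontal) and 82Q_M120A (vertical); the dotted line marks equal levels. Most points lie near the line; Nek2 is farthest below it, at 35.3% and 20.7%, and Nlrp10 farthest above, at 20.7% and 37.0%.

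For several genes with an estimate near zero the interval of the difference was narrow. The log2 fold change of Cacna1g was 0.01 with an approximate 95% interval of -0.14 to 0.16, and that of Atp2a3 was 0.01 (-0.17 to 0.20). Ppp1r16b had -0.01 (-0.14 to 0.12), Zfp385c 0.01 (-0.10 to 0.12), Shisa6 0.01 (-0.11 to 0.13), Rhobtb2 -0.01 (-0.12 to 0.09) and Ywhah 0.06 (-0.07 to 0.18). None of these genes passed the threshold, and every one of these intervals lies within 0.20 log2 units of zero. Not every abundant signalling gene was so. Doc2b had 0.19 (0.05 to 0.32), Grid2ip 0.20 (0.04 to 0.36), Sbk1 0.11 (0.01 to 0.21) and Camk2a 0.10 (-0.08 to 0.29), none of them called. Plcb3 and Bcar1 were called higher, as given above. Rare genes were less well determined: Bmp8a had -0.31 with an interval of -1.28 to 0.66.

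**Figure D4:**
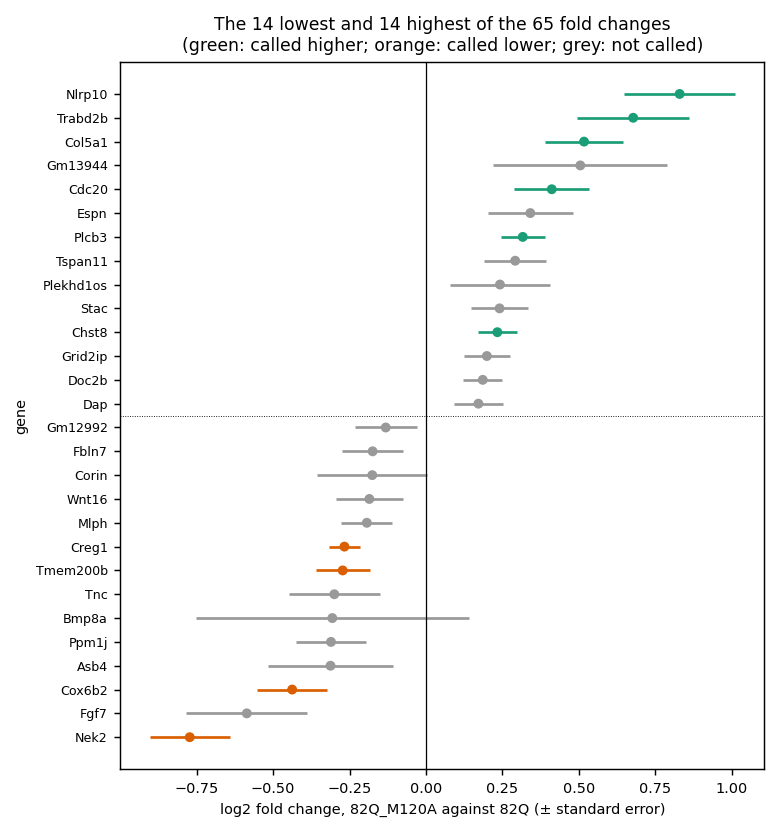
Log2 fold change of 82Q_M120A against 82Q (edgeR, horizontal) with its standard error, for the 14 lowest and 14 highest of the 65 genes. Called genes run from Nek2 at -0.77 to Nlrp10 at 0.83, and the widest bar is that of Bmp8a.

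Within each group the 65 genes tended to move together, and with the 16 known genes, but not equally in every library. In 82Q-5, 58 of the 65 were below their group mean and in 82Q_M120A-3 this held for 61. Above their group mean were 56 in 82Q-2, 54 in 82Q_M120A-5 and 51 in WT-5, while 54 were below in WT-2. The split was more even in 82Q-1 (31 below and 34 above) and 82Q-4 (37 below and 28 above). The median deviation of the 65 was -0.18 log2 units in 82Q_M120A-3, where that of the 16 known genes was -0.21, and 0.13 in 82Q_M120A-5, where it was 0.15. Both medians had the same sign in 15 of 15 libraries, though that of the 65 was only 0.001 in 82Q-1 and -0.009 in 82Q-4. All genes with at least 1 CPM had a median deviation of at most 0.016 in size in any library, and the sign of the 65 was shared by the astrocyte and Bergmann glia list in 11 of 15 libraries, the oligodendrocyte list in 9 and the granule cell list in 6. These are descriptions over libraries, and all lists were read from the same libraries.

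**Figure D5:**
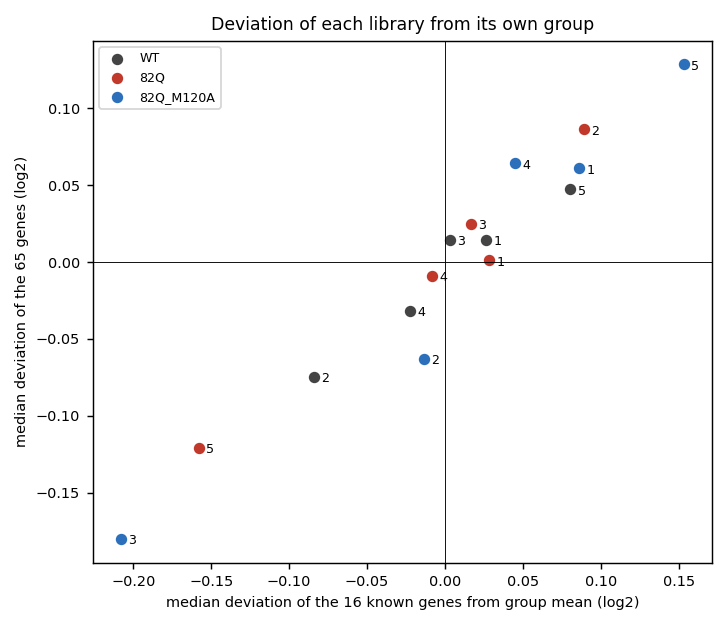
Each point is a library, placed by the median deviation from its own group's mean of the 16 known genes (horizontal) and of the 65 genes (vertical), both in log2 units and coloured by group with the library number. Points run from 82Q_M120A-3 at -0.21 and -0.18 to 82Q_M120A-5 at 0.15 and 0.13.

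The spread within groups was wider in the mutants. The median SD of the 65 genes on the log2(CPM + 0.5) scale was 0.074 in WT, 0.128 in 82Q and 0.161 in 82Q_M120A. Over all genes with at least 1 CPM it was 0.062, 0.076 and 0.080, so the 65 were near the rest in WT and above it in both mutant groups. The part of lower counts in this was not tested.

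The other genes known from Purkinje cells were read beside the 65. Their list was drawn up with earlier results of these data known. Of its 24 genes 5 are among the 65, including Atp2a3, Arhgef33, Cacna1g and Plcb3. Of the other 19, 18 fell in 82Q against WT (10.1% of all tested genes were lower) and 15 fell in 82Q_M120A against WT (17.8% lower). Their median log2 fold change was -0.61 and -0.75, against 0.01 and 0.01 over all genes. Examples are Inpp5a, an inositol phosphatase gene (-1.12 and -0.97), the glutamate transporter gene Slc1a6 (-0.99 and -1.16) and Rora (-0.47 and -0.54). Gene families with members among the 65 changed in both directions in 82Q against WT, where 10.1% of all tested genes fell and 8.63% rose. With the members taken out, 3 of 42 collagen genes fell and 4 rose, 9 of 61 growth factor genes fell and 6 rose, and 32 of 155 ion channel genes fell and 24 rose.

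Levels per length give another order of the 65 in WT. Divided by the merged exon length in GENCODE M21, Ywhah led with 293 CPM per kb, followed by Sbk1 (201), Atp2a3 (78.9) and Fam21 (77.0), and Fam107b (57.5), Kctd12 (57.3), Igfbp5 (56.0) and Creg1 (54.9) came next within a narrow range. The median was 11.2 CPM per kb. At the low end were Adprhl1 (0.347), Espn (0.671), Asb4 (0.690) and Nlrp10 (0.706). Median levels by role were 26.1 CPM per kb for calcium and synaptic signalling, 17.02 for kinases and their kin, 6.16 for matrix and secreted proteins and 6.70 for centrosome and cytoskeleton.

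All 65 genes have coordinates in GENCODE M21, and 62 are protein coding (95.4%, against 92.7% of tested genes). Their median span was 32041 bases, against 23060 for all tested genes, with a median of 10 merged exons against 9. None lies on chromosome X, which holds 3.55% of tested genes, and 8 each lie on chromosomes 2 and 4. Rmdn3 is the direct neighbour of Gchfr, one of the known genes, at 10.7 kb on chromosome 2, and Slc9a3 that of Cep72 at 59.2 kb on chromosome 13. Tmem200b lies 1.74 kb from a predicted model that is also among the 65, and Espn lies 145 kb from Icmt on chromosome 4 with 3 tested genes between. Of 125 nearest neighbours that are neither among the 65 nor the 16, 25 fell in 82Q against WT (20%, against 10.1% of tested genes) and 36 in 82Q_M120A against WT (28.8%, against 17.8%), with medians of -0.02 and -0.03. Slc38a8, next to Necab2, had log2 fold changes of -2.04 and -2.26 in these comparisons, and Plekhd1, next to Plekhd1os, -0.95 and -1.02. Both were chosen after their values were seen.

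Of the 65 genes 56 share no exon base with another gene of the table. Eps8l2 shares 1729 with a gene of unknown product at 2.35 CPM in WT and 1.99 in 82Q. Plcb3 shares 22 bases with Ppp1r14b. One of the predicted models shares 1532 bases with Srsf4, at 20.8 CPM in WT and 21.4 in 82Q, so its own values are uncertain.

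RefSeq promoters of 300 bases were found for 52 of the 65 genes. AGGTCA, searched on both strands, was in those of 9 (17.3%), against 15.4% of 13076 tested genes with a promoter and 16.3% of all 32851 promoters. It was in Fgf7, Arhgef33 and Fam21, printed above, and in Gpr63, Plcb3, Tuba8, Wnt16, Iltifb and Zfp385c. TGACGTCA was in 1 (1.92%, against 3.26% of tested genes), that of Ywhah, and its core TGACG in 11 (21.2% against 32.4%). The E-box CACGTG was in 8 (15.4% against 10.96%) and TATAAA in 2 (3.85% against 9.498%). TGAATGAA and TGAATGGA, octamers that CIC binds, were in none of the 52, against 1.08% and 0.902% of tested genes. These shares are close to the background for AGGTCA, and a match does not show a binding site.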

How the data were processed

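Total RNA of cerebellum was sequenced (TruSeq libraries, per the labels' protocols). Per the submitters' processing notes the authors used CASAVA 1.8, HISAT2 2.0.1 on mm10, featureCounts from Subread, R 3.3.3 and DESeq2 1.14.1; the deposited values are raw read counts per gene symbol, not normalized. The labels name no annotation, strand setting or treatment of multi-mapped reads.

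CPM used column totals of 38322749 to 99422994 counts, so counting error is small except in rare genes. Columns name the group and not the sample, so libraries are numbered by column order within a group. The 3 groups of 5 entered one edgeR 4.0.16 quasi-likelihood fit (R 4.3.3; TMM factors, filterByExpr, no covariate), with Benjamini-Hochberg adjustment over 16808 genes and calls at adjusted p under 0.05. This script was tested on simulated data. DESeq2 1.42.0, limma-voom (limma 3.58.1), other scalings and filters, a fit of the compared groups alone and each library left out were alternatives. Coordinates come from GENCODE M21 and promoters from RefSeq on GRCm38.p6.

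Values in every library are given for the genes with the deepest falls, the highest WT levels, a call between the mutant groups, a place next to the threshold or membership of a marker list or family; others are named by their share of WT. The genes and lists were chosen with earlier results of these data known, and the removal of 82Q-5 and 82Q_M120A-3 together was added after seeing the data. Some genes are not reported here.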

Additional observations from a re-analysis of the deposited data

Results flagged for a closer look

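Of the 84 sets of 5 libraries examined for single values far from the rest (28 of the genes, in 3 groups), 3 held one by Dixon's criterion, where chance flags about 1 in 20. Bmp8a, a BMP ligand, was at 5.558 CPM in WT-5 against 2.655 to 3.352 in the other WT libraries. Nek2, a centrosomal kinase gene, was at 44.78 CPM in WT-5 against 33.49 to 36.47. Ywhah, which encodes a 14-3-3 protein, was at 1019 CPM in WT-2 against 1095 to 1119.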

How the results depend on the processing

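Of 672 values of 28 named genes under 24 alternatives, 623 kept direction and side of the threshold, 22 lost the call, 9 gained one and 18 changed sign. The 18 were values near 0 of 5 genes that were not called either way, 16 of them with 1 library left out. Over all 24 alternatives, log2 fold changes ran from -0.099 to 0.022 for Fam107b, -0.052 to 0.054 for Cacna1g and -0.078 to 0.075 for Atp2a3. For Ppp1r16b they ran from -0.071 to 0.038 and for Zfp385c from -0.017 to 0.053. At adjusted p under 0.01, 3 of the 65 genes were higher and 2 lower in 82Q_M120A against 82Q, and over all genes these were 954 and 691. Leaving out 1 library gave 6 to 14 higher and 3 to 6 lower among the 65. Over all genes it gave 1404 to 1765 higher and 1158 to 1497 lower. The 14 came without 82Q_M120A-3, where 1569 were higher over all genes. Without both 82Q-5 and 82Q_M120A-3, an alternative chosen after seeing the data, 11 of the 65 and 1236 of all genes were higher. Cacna1g was then at -0.025 and Ppp1r16b at 0.018. The rule itself found 61 genes without WT-5 and 68 without 82Q_M120A-4, 58 with a pseudocount of 1, 69 with 0.25 and 73 with TMM scaling. No paired analysis was possible because the columns carry no replicate numbers. Depth limits Bmp8a and Asb4, which fell under 30 counts in some libraries.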
